A study of Talpa occidentalis with 6 samples.

Results

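The regions described here are stretches of mouse autosomes that were open in the testis and not in the ovary at embryonic day 13.5. There were 5511 such regions among 16699 open testis segments on chromosomes 1 to 19, and among 34274 open segments counted over the testis and ovary tracks. Members are open segments of the testis track that contain no open bin of the ovary track, so they were chosen by the measured states of both tracks. Their states in testis and ovary are therefore given as a description, with no test. The assay was ATAC-seq, which reads out where a transposase can reach the DNA of intact nuclei and cut adapters into it.

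Per the labels' protocols, gonads of mouse embryos at embryonic day 13.5 were broken up, strained to a suspension of cells, and 50000 cells went into each tagmentation. The study set mouse gonads beside those of the Iberian mole, whose females carry ovotestes. The 6 samples labelled in the material used here are all wild-type moles at postnatal day 7 and are not analysed here. For the mice, the sources used here give neither genotype nor strain, nor how many libraries lie behind each track. Each mouse gonad is 1 track, so no spread between samples, no test and no depth could be given. Intervals in the text are 95% Wilson intervals, which cover counting error over segments only, and neighbouring segments are not independent.

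At this stage the mouse gonad has taken its sexual fate. In the testis, Sertoli cells enclose the germ cells in cords and secrete the hormone that regresses the Müllerian ducts, and Leydig cells begin to make androgens. In the ovary, supporting cells follow the pregranulosa path and germ cells start to enter meiosis. Open chromatin outside promoters often marks enhancers, and cell types of the gonad differ in which enhancers are open. Whole gonads were used, so fewer cells with an open site and weaker opening in each cell cannot be told apart.

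Each track divides the genome into 200 bp bins and gives every segment 1 of 5 numbered chromatin states. State 1 had the smallest summed length on the autosomes in both gonads and was taken as open. The deposited colour column draws it in red (red 227, green 26, blue 28) in both files and draws no other state in that colour. State 2 is drawn in pale orange, states 3 and 4 in grey and state 5 in white. The states form an ordered series, since 98.1% of state boundaries in the testis and 97.9% in the ovary joined neighbouring numbers. Of the boundaries of open segments, 99.6% in the testis and 99.2% in the ovary led to state 2.

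The sex chromosomes were read as a check of the gonad labels. On chromosome Y the ovary track had 0 segments in states 1, 2 or 3 and 99.8% of the length in state 5, whereas the testis track had 14 open segments. On chromosome X, state 3 covered 71.5% in the ovary and 10.3% in the testis, and state 4 covered 11.1% in the ovary and 73.4% in the testis. The commonest state of the X was thus state 3 in the ovary and state 4 in the testis, the gonad of animals with a single X. The part of the single X in this was not tested. No such shift was seen on the autosomes, where state 3 covered 73.1% in the ovary and 70.9% in the testis.

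Open sequence was longer in the testis track, which bears on every count that follows. State 1 covered 12.6 Mb of autosomes in the testis (0.510%) and 9.69 Mb in the ovary (0.392%), a ratio of 1.30. The testis had the smaller number of open segments, 16699 against 17575, and they were longer, with a mean of 755 bp against 551 bp. State 2 also covered more in the testis, 16.9% against 14.5%. The part of this difference between the tracks in the results below was not tested.

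The 5511 regions were 33.0% of open testis segments (32.3% to 33.7%) and spanned 2.57 Mb, or 20.4% of the open testis length. This 33.0% is itself the share of all testis segments that the rule took, and nothing is read from it. The opposite set, open in the ovary and not in the testis, held 6218 segments. It was 35.4% of open ovary segments (34.7% to 36.1%) and spanned 1.64 Mb, or 17.0% of the open ovary length. By these counts the ovary had more segments of its own, and the testis had more sequence of its own. The order of the segment shares turned under other settings: it was 27.8% in the testis against 11.2% in the ovary from 400 bp up, and 44.4% against 41.8% with states 1 and 2 both taken as open.

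Most of the testis regions were in state 2 in the ovary, the neighbour of the open state in the series. The most open ovary state was state 2 in 4873 regions, or 88.4% (87.6% to 89.2%), and 4787 of these were in state 2 throughout. In 625 regions, 11.3% (10.5% to 12.2%), the ovary reached no further than state 3, and 623 of these were in state 3 throughout. Another 13 regions, 0.236% (0.138% to 0.403%), were in state 4 throughout, and 0 were in state 5 (upper bound 0.0697%). Only 88 regions, 1.60%, crossed more than 1 ovary state. Counted by bins, 11406 of the 12845 member bins were in ovary state 2, 1401 in state 3 and 38 in state 4.

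**Figure D1:**
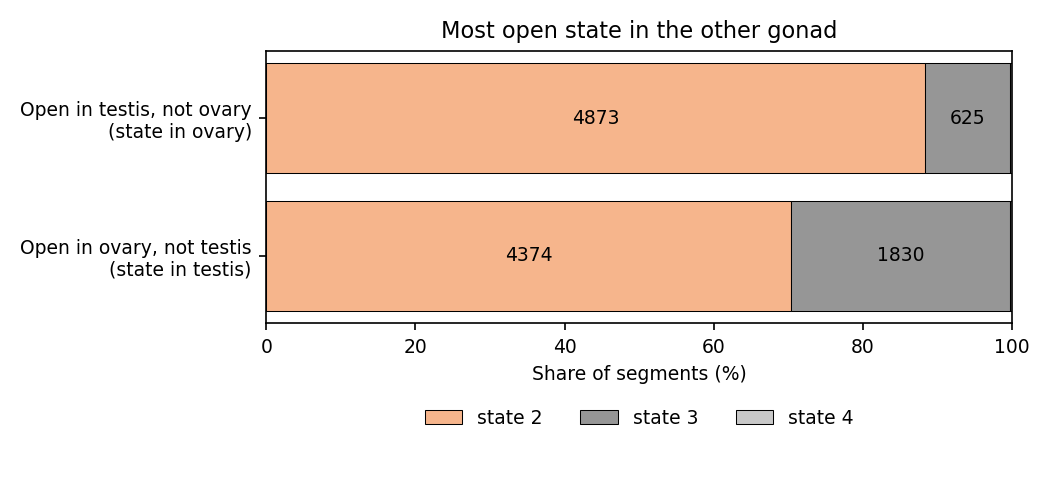
Share of segments (%) by the most open state that the other gonad reached under them, for segments open in testis and not ovary (top) and in ovary and not testis (bottom). State 2 holds 4873 of the 5511 testis segments and 4374 of the 6218 ovary segments, and the numbers in the bars are counts of segments.

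The opposite set reached state 2 in the other gonad less often. Of the segments open in the ovary alone, 70.3% reached state 2 in the testis (69.2% to 71.5%), and 1844, or 29.7% (28.5% to 30.8%), stayed at state 3 or higher numbers. Among the testis regions the matching count was 638, or 11.6% (10.8% to 12.4%). As shares of all open segments, the larger drop of at least 2 states was found in 3.82% of testis segments and in 10.5% of ovary segments. The wider extent of state 2 in the testis lies beside this difference. Lengths differed too, with single bins of 200 bp making up 80.2% of the ovary set and 25.1% of the testis regions. Among the testis regions, the share at state 3 or higher numbers was 17.3% at 200 bp and 2.64% at 800 bp. The part of state 2 and of length in the difference was not tested.

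The regions were short compared with open testis segments that the ovary shared. Their median length was 400 bp (quartiles 200 and 600 bp) and their mean 466 bp. Shared testis segments had a median of 800 bp (quartiles 600 and 1000 bp) and a mean of 898 bp. A longer segment has more bins in which an open ovary bin can fall, so this order is in part built into the rule. Of the testis regions, 1384 (25.1%) were a single bin of 200 bp, 2241 (40.7%) were 400 bp and 1160 (21.0%) were 600 bp long. A further 454 were 800 bp long, and 272 (4.94%) reached 1000 bp or more.

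The share of testis segments that were open in the testis alone fell with length. It was 74.8% at 200 bp (72.8% to 76.7%), 59.5% at 400 bp (57.9% to 61.0%) and 32.6% at 600 bp (31.1% to 34.2%). At 800 bp it was 15.8% (14.5% to 17.2%), at 1000 bp 8.49% (7.31% to 9.83%), and from 1600 bp up 2.61% (1.78% to 3.79%). Of the longest class of open testis segments, nearly all held an open ovary bin.

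The testis and ovary sets differed in length class. At 200 bp the shares open in 1 gonad alone had overlapping intervals, with 74.8% of testis segments and 76.1% of ovary segments (75.1% to 77.1%). At 400 bp the ovary share was 24.5% (23.1% to 25.9%) against 59.5% in the testis, and at 600 bp it was 6.98% (6.09% to 7.98%) against 32.6%. From 1600 bp up the order was the other way, 5.20% of ovary segments (3.57% to 7.51%) against 2.61% of testis segments, with intervals that overlap. Single bins made up 80.2% of the ovary set and 25.1% of the testis set. Counted from 400 bp up, 4127 testis regions stood against 1232 ovary regions, a ratio of 3.35, whereas at 200 bp 1384 stood against 4986. Open segments of all kinds were longer in the testis track, and the part of that in this contrast was not tested.

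**Figure D2:**
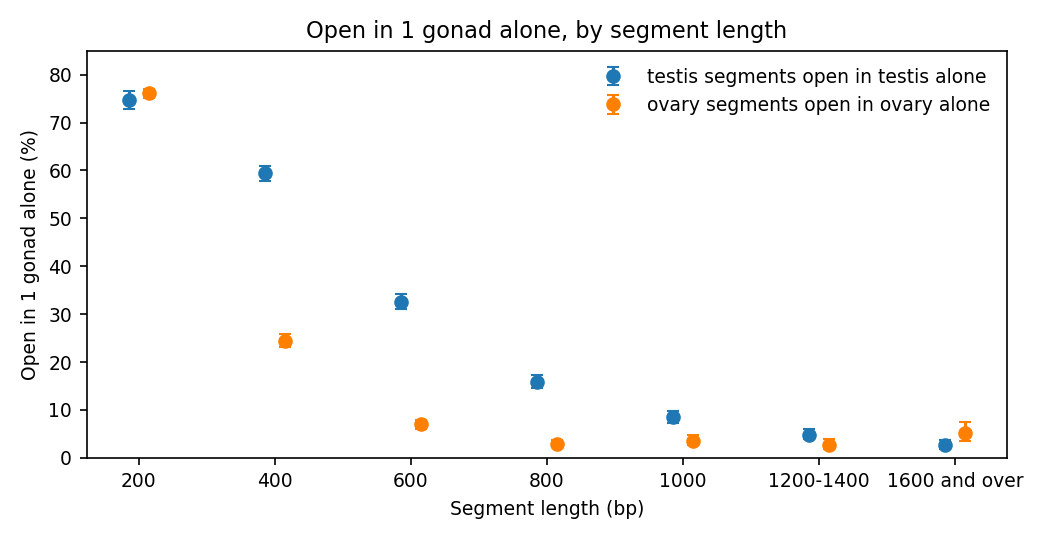
Share of open segments (%) with no open bin in the other gonad, by segment length (bp), for testis segments (blue) and ovary segments (orange), with 95% Wilson intervals. The intervals overlap at 200 bp, at 1200 to 1400 bp and from 1600 bp up. The testis share is the higher from 400 to 1400 bp, at 59.5% against 24.5% for 400 bp.

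The depth of the drop also varied with length within the testis regions. A longer region has more bins in which ovary state 2 can fall, so a fall with length is in part built into this measure. Of the 200 bp regions, 17.3% (15.4% to 19.4%) stayed at ovary state 3 or 4 throughout. The share was 12.9% at 400 bp (11.5% to 14.3%), 7.33% at 600 bp (5.96% to 8.97%) and 2.64% at 800 bp (1.52% to 4.56%). From 1000 bp up it was 5.15% (3.09% to 8.45%), or 14 of 272 regions, of which 7 lay in the stretches of chromosomes 2 and 3 described below.

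The regions lay inside broader stretches of states 1 and 2 that the ovary had in part. In the testis, state 2 lay on both sides of 5482 regions, 99.5% (99.2% to 99.6%), close to the 99.3% of shared testis segments. In the ovary, 4444 of the same regions, 80.6% (79.6% to 81.7%), also had state 2 on both sides. The run of states 1 and 2 holding a region had a median length of 6.40 kb in the testis (quartiles 3.4 and 14.2 kb). Where the ovary reached state 2, its run had a median of 5.0 kb (quartiles 2.6 and 10.2 kb) and the testis run there a median of 7.20 kb. The testis run was the longer at 3389 of these 4873 regions, 69.5% (68.2% to 70.8%), and the ovary run at 1348. Longer testis runs were found at the other open segments too. At shared testis segments the median run was 8.60 kb in the testis and 6.80 kb in the ovary. At segments of the ovary set that reached testis state 2, the ovary run was the longer at 1616 of 4374, 36.9% (35.5% to 38.4%). Where the ovary stayed at state 3 or 4, the testis run was shorter, with a median of 3.0 kb over 638 regions.

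Around the centres of the regions, states 1 and 2 were more frequent in both gonads than at 10 kb. States 1 and 2 together were found at the centre in 87.9% of the regions in the ovary, and in every region in the testis by the rule. At 1 kb to the right the values were 67.5% in the ovary and 85.1% in the testis, at 5 kb 32.8% and 41.3%, and at 10 kb 30.2% and 37.5%. The ovary level at the centre was thus far above its level at 10 kb. At shared testis segments, the values at 10 kb were 34.7% in the ovary and 41.4% in the testis, so both gonads were somewhat higher around shared segments than around the testis regions. Around segments open in the ovary alone, states 1 and 2 were found in 70.3% at the centre in the testis. There the testis track was again the higher at 10 kb, with 39.3% against 35.6% in the ovary.

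**Figure D3:**
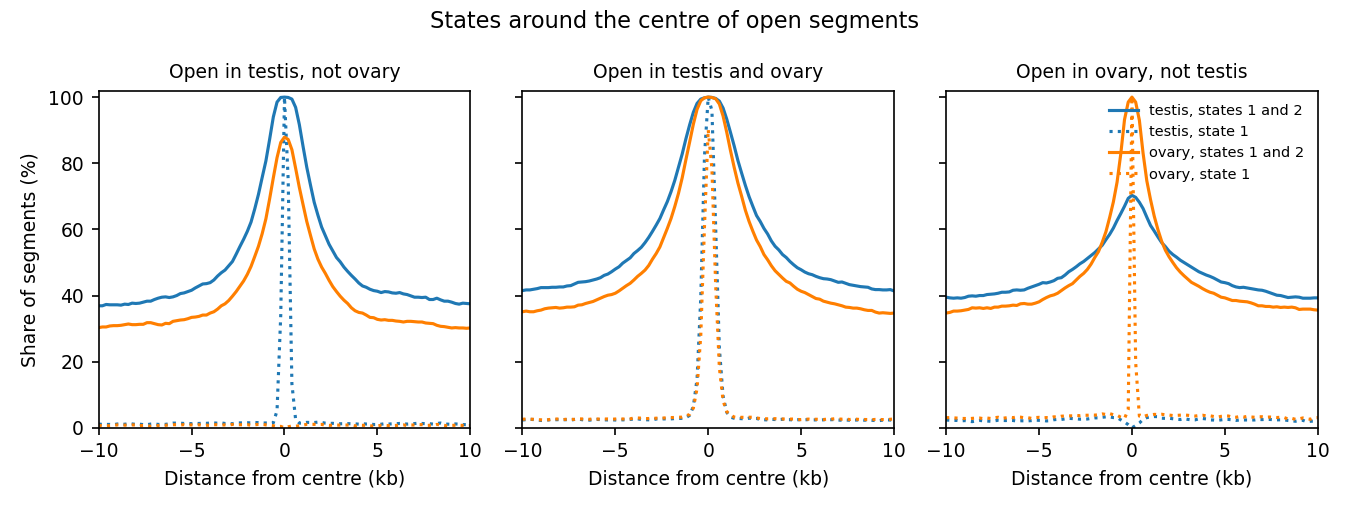
Share of segments (%) in state 1 (dotted) and in states 1 and 2 (solid) by distance from the segment's centre (kb) in testis (blue) and ovary (orange), for the 3 kinds of open segment. At regions open in testis and not ovary (left), the ovary reached states 1 and 2 in 87.9% at the centre and 30.2% at 10 kb, and its state 1 is 0 at the centre by the rule.

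Most regions were the only open segment in their run of states 1 and 2, as were most shared testis segments and most segments of the ovary set. In the testis, 4234 regions, 76.8% (75.7% to 77.9%), were the only open segment in their run of states 1 and 2. A shared open segment lay in the same run for 871 regions, 15.8% (14.9% to 16.8%), and another testis region but no shared segment for 406, 7.37%. Among shared testis segments the share that stood alone was 72.9% (72.1% to 73.7%), and among segments of the ovary set, within ovary runs, it was 68.5% (67.3% to 69.6%). Testis runs were shorter at the regions than at shared testis segments, with medians of 6.40 and 8.60 kb, and the part of this was not tested. In the ovary, 3845 of the 4873 regions that reached state 2 met runs with no open segment at all, 78.9% (77.7% to 80.0%). At the other 1028 the ovary run held an open segment elsewhere in its length.

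Most regions had no open ovary segment within 5 kb. These distances were not compared with those of randomly placed regions, so they are not read as near or far. An open ovary segment touched the edge of 73 regions, 1.32% (1.05% to 1.66%), lay within 1 kb of 294 (5.33%) and within 5 kb of 833, or 15.1% (14.2% to 16.1%). The median distance to the nearest open ovary segment was 35 kb. It was 31.6 kb for the regions reaching ovary state 2 and 90.6 kb for the 638 at state 3 or 4. Accordingly, 39.7% of the former (38.4% to 41.1%) and 16.0% of the latter (13.3% to 19%) had an open ovary segment within 20 kb.

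The regions also lay somewhat apart from open segments that both gonads shared. A shared testis segment lay within 5 kb of 499 regions, 9.05% (8.33% to 9.84%). The same held for 13.4% of shared testis segments (12.8% to 14.1%), counted against the other shared segments. Of the ovary set, 18.7% (17.8% to 19.7%) had a shared ovary segment within 5 kb. The median distance to the nearest shared segment was 57.8 kb for the testis regions, 37.4 kb between shared testis segments and 40.8 kb for the ovary set. Another testis region lay within 5 kb of 7.60% of the regions (6.93% to 8.33%), and the median distance between neighbours of the set was 93.6 kb.

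All autosomes held testis regions, at 1.84 to 3.6 per Mb with a median of 2.16 per Mb. Chromosome 11 had the highest density, 3.6 per Mb, and also the highest density of open testis segments of all kinds, 9.84 per Mb. Chromosome 14 had the lowest density, 1.84 per Mb, and the lowest for all open testis segments, 5.26 per Mb. As a share of open testis segments, the regions ran from 26.7% on chromosome 5 (24.1% to 29.4%) to 39.3% on chromosome 18 (35.1% to 43.8%), with a median of 33.3%. Chromosome 7, with 28.2% (25.7% to 30.8%), and chromosome 8, with 29.5% (26.8% to 32.5%), were the next lowest. Chromosome 11, with 36.6% (33.9% to 39.4%), and chromosome 6, with 36.2% (33.1% to 39.4%), were the next highest, and their intervals overlap that of chromosome 18.

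The ovary set followed this order only in part. Chromosome 14 had the highest ovary share, 44.6% (41.1% to 48.1%), against 34.9% for the testis regions (31.4% to 38.6%). Chromosome 11 had the lowest ovary share, 30.7% (28.1% to 33.5%), against 36.6% in the testis.

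**Figure D4:**
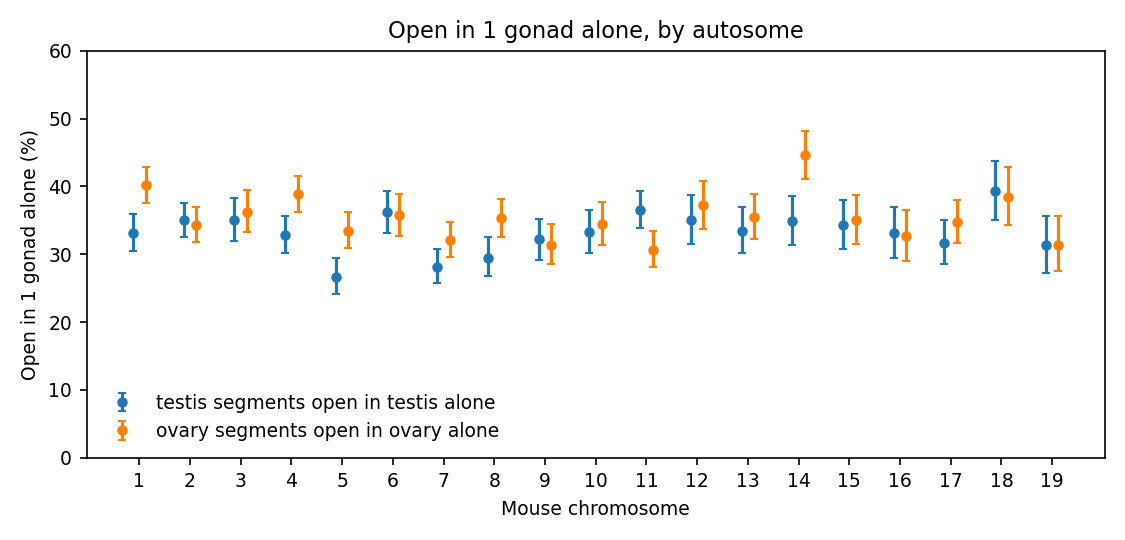
Share of open segments (%) with no open bin in the other gonad on each mouse autosome, for testis segments (blue) and ovary segments (orange), with 95% Wilson intervals. The testis share runs from 26.7% on chromosome 5 to 39.3% on chromosome 18, and chromosome 14 has the highest ovary share, 44.6%.

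In windows of 1 Mb, 1868 of 2463 held at least 1 region, the median was 2 regions and the highest count 14. Regions outnumbered shared testis segments in 535 windows, and 221 windows held regions and no shared testis segment. More windows, 314, held a shared testis segment and no region. Counts per window were small, so nothing is read from these numbers. The densest windows were on chromosome 11 from 98000001 to 99000000 and on chromosome 19 from 5000001 to 6000000, with 14 regions each. The chromosome 11 window held 18 shared testis segments, so 43.8% of its 32 open segments were open in the testis alone. The chromosome 19 window held 30 shared segments and a share of 31.8%, close to the genome's 33.0%. On chromosome 10, the window from 79000001 to 80000000 held 13 regions beside 32 shared segments, and 13 segments of the ovary set, so that its share was 28.9%. The next windows, with 12 regions each, lay on chromosome 2 from 27000001 to 28000000 and on chromosome 11 from 97000001 to 98000000. On chromosome 2 the regions were 57.1% of 21 open testis segments, and on chromosome 11 they were 48.0% of 25.

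The longest regions were few, and a stretch of chromosome 3 held several of them. Of the 5511 regions, 8 exceeded 2 kb, against 235 of 11188 shared testis segments. The longest spanned 16800 bp, and its neighbour 200 bp further on spanned 5000 bp. They lay on chromosome 3 at 25429601 to 25446400 and at 25446601 to 25451600. In the first, the ovary was in state 3 in 78 of 84 bins and in state 2 in the other 6. In the second, all 25 bins were in ovary state 3.

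These belong to a stretch of chromosome 3 from 25416401 to 25456000 that supplied 5 of the 10 longest regions outside chromosome 18. Over its 39.6 kb, 7 regions covered 31.8 kb, and 1 shared testis segment of 3200 bp covered the positions 25422201 to 25425400. The ovary had a single open segment of 600 bp there, inside that shared segment. Joined at gaps of at most 2 kb, a distance chosen after the data were seen, 5 of the regions formed a chain from 25427401 to 25456000. In this chain the testis was in state 1 in 134 of 143 bins and in state 2 in the others, and the ovary was in state 3 in 137 bins and in state 2 in 6. In the 30 kb to the right of the chain, 147 of 150 bins were in state 3 in the testis and 134 in the ovary. On that side the testis left state 1 for the commonest state of the genome. The 30 kb to the left differed, with 41 testis bins in state 1, 19 in state 2 and 90 in state 3, and 49 ovary bins in state 2. The longest shared testis segments outside chromosome 18, of 28400, 25800 and 19400 bp, also lay together, on chromosome 11 from 3023201 to 3100000. Repeats, copy number and mappability were not examined at these stretches or at any other region.

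**Figure D5:**
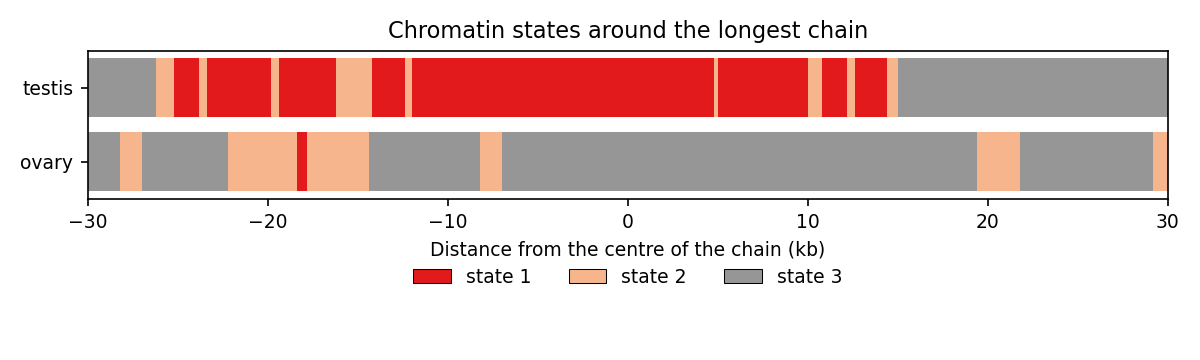
Chromatin state of each 200 bp bin in testis (top) and ovary (bottom) by distance (kb) from the centre of the longest chain of regions on chromosome 3. The testis is in state 1 in 134 of the 143 bins of the chain, and the ovary in state 3 in 137 of them.

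Such chains were rare. Of the regions, 5290 had no other region within 2 kb, 192 stood in pairs and 29 formed 8 chains of 3 or more. A chain on chromosome 2 from 27351801 to 27358400 had 5 regions, with 23 of its 33 bins in testis state 1 and all 33 in ovary state 3. Its longest region, 2200 bp at 27354401 to 27356600, was among the 10 longest. This chain lay in the chromosome 2 window with 12 regions and made up 5 of them. A chain of 4 regions on chromosome 9 from 115058801 to 115061400 also had all 13 bins in ovary state 3. By contrast, the chain of 3 regions on chromosome 17 from 71198001 to 71202800 had 24 of 24 bins in ovary state 2, and that on chromosome 11 from 98601601 to 98605600 had 20 of 20.

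Elsewhere the longest regions with a drop of 2 states or more were single. On chromosome 14, a region of 4400 bp at 45289401 to 45293800 had 16 bins in ovary state 3 and 6 in state 4, with ovary state 4 on both sides. A second on that chromosome, of 1600 bp at 20453801 to 20455400, had all 8 bins in state 3. On chromosome 5, a region of 1400 bp at 105356401 to 105357800 had all 7 bins in state 3. Of the 13 regions at ovary state 4 throughout, 2 lay on chromosome 18, with lengths of 1200 and 2000 bp. Positions on that chromosome are not given here. The other 11 were at most 400 bp long. The longest of those 11 were on chromosome 9 at 123997001 to 123997400, on chromosome 15 at 19426401 to 19426800 and on chromosome 17 at 36621601 to 36622000. In the testis, the chromosome 15 region bordered state 4 on both sides, with no step through states 2 and 3. In the testis, 29 of the 5511 regions, 0.526% (0.367% to 0.755%), bordered state 4 or 5, and so did 0.697% of shared testis segments (0.559% to 0.869%).

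The regions on either side of the rule's edge differed by a single ovary bin. Just inside it, the longest regions with ovary state 2 in every bin were on chromosome 3 at 145314401 to 145316800 (12 bins), on chromosome 9 at 78323801 to 78326000 (11 bins) and on chromosome 14 at 100683401 to 100685600 (11 bins). Just outside it, a 2800 bp testis segment on chromosome 10 at 127527801 to 127530600 had 1 open ovary bin and 13 in state 2. A 2600 bp segment on chromosome 17 at 27691801 to 27694400 had 1 and 12, and a 2200 bp segment on chromosome 12 at 12948401 to 12950600 had 1 and 10. In all, 1788 shared testis segments, 16.0% (15.3% to 16.7%), were kept out of the set by exactly 1 open ovary bin. Of these, 1322 had 2 bins or more, and the other 466 were single bins, open in both gonads over their whole length. The ovary was open over the whole segment in 34.5% of shared testis segments (33.6% to 35.4%).

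Both track headers open on a window of chromosome 8 from 91539873 to 92107481. It held 0 regions of the testis set, 0 of the ovary set and 1 shared testis segment.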

How the data were processed

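The chromatin state numbers are categories deposited by the authors and not a score or a count. They were made with EpiCSeg, per the file headers, which give no version. STAR 2.6.1d and the build mm9 are named, without a role, in the submitters' processing notes. The bins of both files are the same, and chromosome 1 ends at 197195400. The sources used here do not say whether 1 model was fitted to both mouse tracks, or whether they were scaled for depth. Comparing them assumes that a state means the same in both. The members and lists were chosen with earlier results of these data known. Autosomal open segments (state 1) were split by whether they hold an open bin of the other gonad, in Python 3.11.15 with numpy 2.4.6. Intervals are Wilson intervals from scipy 1.17.1. On simulated tracks of 20000 segments, the planted set was recovered at 3 of 3 levels. Those tracks held no noise, so this checks the splitting code only and says nothing of the regions themselves. Regions named in the text are the 10 longest, the 10 longest without ovary state 1 or 2, the 5 windows of 1 Mb with most regions, and 3 on either side of the rule's edge, leaving out chromosome 18. Chains, the stretch on chromosome 3, regions at ovary state 4 and the runs of states 1 and 2 were chosen after the data were seen. No gene and no sequence is named, since no mouse gene table or genome was used here. Positions are 1-based. The alternatives were a minimum of 400 bp, open bins widened by 1 bin, segments at most 200 bp apart joined, and states 1 and 2 both taken as open.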

Additional observations from a re-analysis of the deposited data

Results flagged for a closer look

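The rule covers autosomes, and the sex chromosomes held further open testis segments without an open ovary bin. On chromosome Y there were 14, all of them in state 4 or 5 in the ovary, where state 1 had 0 segments. The mouse ovary holds no chromosome Y, so these 14 are not read as a difference in opening. They spanned 78.4 kb, 6 of the 14 exceeded 2 kb, and the longest spanned 28200 bp. In the ovary track, these 6 reached state 4 and the shorter ones were in state 5 throughout. How reads were placed on chromosome Y was not examined, so these lengths are not set against those of the autosomal regions. On chromosome X there were 139, or 32.6% of 427 open testis segments (28.3% to 37.1%). In the opposite direction, 307 of 604 open ovary segments on chromosome X, 50.8%, had no open testis bin, against 35.4% on the autosomes. The X stood lower as a whole in the testis track, as its states show, and the difference was not tested.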

How the results depend on the processing

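Of 23 values recomputed under the 4 alternatives, 15 stayed within the limits set and 8 moved. Widening the open bins by 1 bin and joining segments at most 200 bp apart moved none. Staying within the limits did not mean no change. From 400 bp up, the number of regions fell from 5511 to 4127 and was counted as within them. The share reaching ovary state 2 rose there from 88.4% to 90.3% and was counted as moved. Counting segments from 400 bp up gave 27.8% of testis segments as regions and 11.2% for the reverse share, with 90.3% of regions reaching ovary state 2. Taking states 1 and 2 as open gave 44775 regions, 44.4% of testis segments, with a reverse share of 41.8%, 28.1% of regions within 5 kb of a shared segment, and a median length of 1600 bp. The reverse share was thus the larger as counted and the smaller under both of these settings. Nearness to a shared segment was 9.18% from 400 bp up. No paired analysis was possible because each mouse gonad is 1 track, with no replicate columns. The read depth of the tracks is unknown, and a step of 1 state has no size in reads.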
